A study of Mus musculus with 96 samples.

Results

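The numbered Zfp genes are mouse zinc finger genes whose symbol is Zfp followed by a number alone. They were examined across 48 single mouse embryonic stem (ES) cells. Of 23284 gene rows in the count table, 337 had such a symbol, with Zfp42, Zfp57 and Zfp281 left aside by rule. Averaged over the cells, 50 reads or more were reached by 206 of them (61.1%), against 38.6% of all rows (8980 genes), and these 206 are the members described here. The other 131 had no read in any cell (14 genes), a mean under 1 read (15), from 1 to 10 reads (28) or from 10 to 50 reads (74). Just inside the minimum lay Zfp37 (50.3 reads), Zfp81 (51.4) and Zfp160 (52.9). Just outside it lay Zfp105 (49.9), Zfp113 (47.9) and Zfp595 (47.5). The name is a naming series and not a single family, and it brings together proteins of several functions.

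The cells were J1 ES cells, a male line from strain 129 mice, kept without feeder cells in medium with serum and leukaemia inhibitory factor (LIF) at passage 12 to 20. Each was captured on a microfluidic chip, its amplified cDNA was made into 1 library, and each library was read on 2 lanes, which gave 96 samples. All cells form a single group of unmodified cells. No separate culture is named for any cell, so the cells are not replicates of a condition, and no p-value here extends beyond them.

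Most of these genes encode C2H2 zinc finger proteins, in which a short fold held by cysteines, histidines and a zinc ion reads a few bases of DNA, and arrays of fingers read longer sites. Many also carry a KRAB domain, which recruits the corepressor Trim28 (KAP1). Trim28 brings in the histone methyltransferase Setdb1, and together they silence retroelements and protect imprinted loci in early embryos and ES cells. Many KRAB genes lie in chromosomal clusters that arose by duplication, and some neighbours are close copies between which reads can be shared.

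The longest open reading frame of each gene's annotated transcripts was searched for the C2H2 pattern and for a KRAB-like stretch. At least 1 C2H2 match was found in 200 of 206 members, and the largest number was 36 in Zfp142, followed by 33 in Zfp462. The 6 without a match were Zfp36, Zfp185, Zfp259, Zfp330, Zfp365 and Zfp839. Zfp36 (tristetraprolin) is a known example of another zinc finger type, which binds AU-rich elements of messenger RNA. A KRAB-like stretch was found in 98 members, with a median of 12 C2H2 matches, and 108 had none, with a median of 8. The pattern for KRAB is strict and can miss divergent domains. In RefSeq gene order, 102 members stood directly beside another of the 337 numbered Zfp genes, whether or not that gene reached the count minimum.

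Several members were close copies of each other at the protein level. The median member shared 58.2% of residues with its closest other member, over the shorter frame. Short frames are favoured by this measure: the closest to Zfp106 (1888 residues) was Zfp706 (76 residues), at 54.0%. The median is therefore not a measure of close copies. Of the 206, 4 had a partner at 90% or more: Zfp960 with Zfp97 (96.3%) and Zfp808 with Zfp934 (95.6%). How the authors' counting treated reads that fit several genes is not given in the sources used here. Values of such pairs are therefore uncertain. Zfp534 and Zfp600, both on chromosome 4 and both central to the results below, shared 72.5% of residues.

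RefSeq promoters (GRCm38.p6, 250 bases before to 50 after the start) were matched for 168 members, 212 promoters in all. Those below belong to 7 of the members with large differences between the cell states described next, printed to show how alike or unlike they are. Capitals mark AGATAA, a word of the site that GATA factors bind, and the octamer ATGCAAAT, bound by POU factors such as Oct4. Both were searched on both strands, and they do not overlap in sequence. Zfp697 lies at chr3:98382231-98382530 on the plus strand. Zfp948 lies at chr17:21566728-21567027, plus strand. Zfp600, the first of 2 promoters, lies at chr4:146156577-146156876, plus strand. Zfp534 lies at chr4:147702582-147702881, minus strand, and Zfp296 at chr7:19577037-19577336, plus strand. Zfp800, the first of 2 promoters, lies at chr6:28397956-28398255, minus strand, and Zfp459 at chr13:67421369-67421668, minus strand.
Zfp697: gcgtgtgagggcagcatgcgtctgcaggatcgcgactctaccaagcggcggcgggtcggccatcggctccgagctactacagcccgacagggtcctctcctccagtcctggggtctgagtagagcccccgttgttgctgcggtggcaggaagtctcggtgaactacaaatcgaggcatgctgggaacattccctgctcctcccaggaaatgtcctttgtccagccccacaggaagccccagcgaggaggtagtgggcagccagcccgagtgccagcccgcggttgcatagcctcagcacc
Zfp948: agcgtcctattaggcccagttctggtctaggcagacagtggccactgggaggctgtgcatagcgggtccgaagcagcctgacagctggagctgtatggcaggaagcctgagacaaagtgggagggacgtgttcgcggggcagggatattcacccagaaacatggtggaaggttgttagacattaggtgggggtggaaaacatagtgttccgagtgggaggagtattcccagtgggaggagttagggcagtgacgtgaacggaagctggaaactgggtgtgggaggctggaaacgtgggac
Zfp800: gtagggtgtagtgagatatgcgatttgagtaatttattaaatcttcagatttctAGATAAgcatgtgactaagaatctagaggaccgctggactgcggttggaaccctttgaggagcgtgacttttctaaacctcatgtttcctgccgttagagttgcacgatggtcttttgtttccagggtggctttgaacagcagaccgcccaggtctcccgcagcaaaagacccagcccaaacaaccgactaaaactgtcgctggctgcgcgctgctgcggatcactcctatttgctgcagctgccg
Zfp600: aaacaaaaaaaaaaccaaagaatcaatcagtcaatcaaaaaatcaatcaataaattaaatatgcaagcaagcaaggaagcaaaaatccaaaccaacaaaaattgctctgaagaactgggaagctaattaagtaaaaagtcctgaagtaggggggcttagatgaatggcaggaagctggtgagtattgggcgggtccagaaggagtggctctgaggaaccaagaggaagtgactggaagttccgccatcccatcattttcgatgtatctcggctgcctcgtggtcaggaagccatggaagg
Zfp534: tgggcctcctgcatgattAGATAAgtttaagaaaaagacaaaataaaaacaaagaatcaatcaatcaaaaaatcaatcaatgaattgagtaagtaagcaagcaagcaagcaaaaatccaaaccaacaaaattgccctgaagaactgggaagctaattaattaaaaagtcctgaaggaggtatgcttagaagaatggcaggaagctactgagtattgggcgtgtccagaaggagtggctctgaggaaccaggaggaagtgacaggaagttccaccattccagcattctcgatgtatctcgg
Zfp459: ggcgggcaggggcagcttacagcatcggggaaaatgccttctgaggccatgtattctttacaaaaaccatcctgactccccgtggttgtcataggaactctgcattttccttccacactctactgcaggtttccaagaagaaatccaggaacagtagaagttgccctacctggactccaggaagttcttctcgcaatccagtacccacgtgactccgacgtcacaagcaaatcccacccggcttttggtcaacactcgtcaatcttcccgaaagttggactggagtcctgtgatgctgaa
Zfp296: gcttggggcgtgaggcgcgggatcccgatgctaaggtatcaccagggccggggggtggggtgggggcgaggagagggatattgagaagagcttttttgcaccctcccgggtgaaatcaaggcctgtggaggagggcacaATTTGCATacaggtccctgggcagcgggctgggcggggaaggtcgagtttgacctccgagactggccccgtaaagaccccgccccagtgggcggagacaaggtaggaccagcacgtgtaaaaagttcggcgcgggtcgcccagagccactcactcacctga

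Aligned to each other, the promoters of Zfp600 and Zfp534 were identical at 241 of 266 aligned bases (90.6%). The Zfp534 and Zfp800 windows held 1 AGATAA match each and the Zfp296 window 1 octamer on the reverse strand, written there as ATTTGCAT. The windows of Zfp697, Zfp948, Zfp600 and Zfp459 held neither, nor did the second promoter of Zfp800. AGATAA occurred in 6.13% of member promoters and in 11.2% of all 32851 promoters, and the octamer in 2.36% and 1.74%. Member promoters held more CG dinucleotides, with a median of 15 against 7 in all promoters. A match is a description of the letters in this window and says nothing of a factor's binding.

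The cells held from 4408953 to 9767245 reads in genes, and from 8039 to 10291 genes with a read. Levels are CPM, the reads of a gene relative to the cell's scaled library total, and their spread is taken on the scale log2(CPM + 1). CPM is not divided by gene length, so it ranks genes by reads and not by transcripts. The reads carry no molecular identifiers and are not independent molecules, and any limit given on a share covers counting error only. The kit does not mark strand, so reads of antisense partners cannot be told apart. Markers of primitive endoderm, the extraembryonic layer headed by Gata6, divided the cells: 35 had Gata6 from 0 to 1.11 CPM and 13 from 63.7 to 808 CPM. Summed over 9 endoderm markers, the 35 cells held 2.38 to 131 CPM and the 13 held 2422 to 13736. That sum includes Gata6, by which the cells were divided, and each of the other endoderm markers was also higher on average in the 13 cells. The sum of the 8 naive pluripotency markers ran the other way, from 418 to 5634 CPM against 181 to 1480, with overlap. Of these markers, Tbx3 and Klf4 were higher in the 13 cells, by 1.18 and 0.45 in mean log2(CPM + 1), and the others lower. Of 6 fibroblast markers, 2 were at 0 in all cells, and the sum of the 6 reached at most 35.9 CPM. The 3 trophoblast markers reached 71.9 CPM, the 3 mesoderm markers 48.9 CPM and the 3 neural markers 295 CPM in single low cells, with medians of 0, 0 and 0.355 CPM there. Of the neural markers, Neurod1 was detected in 13 of 35 low cells and 1 of 13 high cells. All 3 markers of the 2-cell-like state were at 0. For the members, counts on the lanes of a cell differed by no more than sampling noise (chi-square index 1.01, where 1 is pure sampling noise), so lanes were summed.

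The members were expressed at low levels and patchily. Together they took from 0.450% to 1.00% of a cell's reads, with a median of 0.766%. A gene was called detected in a cell with at least 5 reads, after every cell was thinned to 4408953 reads. On that count a member was found in a median of 24.5 of 48 cells, with an interquartile range of 16 to 38, whereas the median over all 8980 genes was 38 cells. Fewer than 24 cells held 96 members (46.6%), against 21.3% of all genes. All 48 cells held 6 members (2.91%), against 19.8% of all genes. The members' lower counts go with this. Among the 102 members whose mean count lay in the members' own interquartile range, 85.2 to 268 reads, the median was 24 cells, and over the 3084 genes in that range it was 29.

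**Figure D1:**
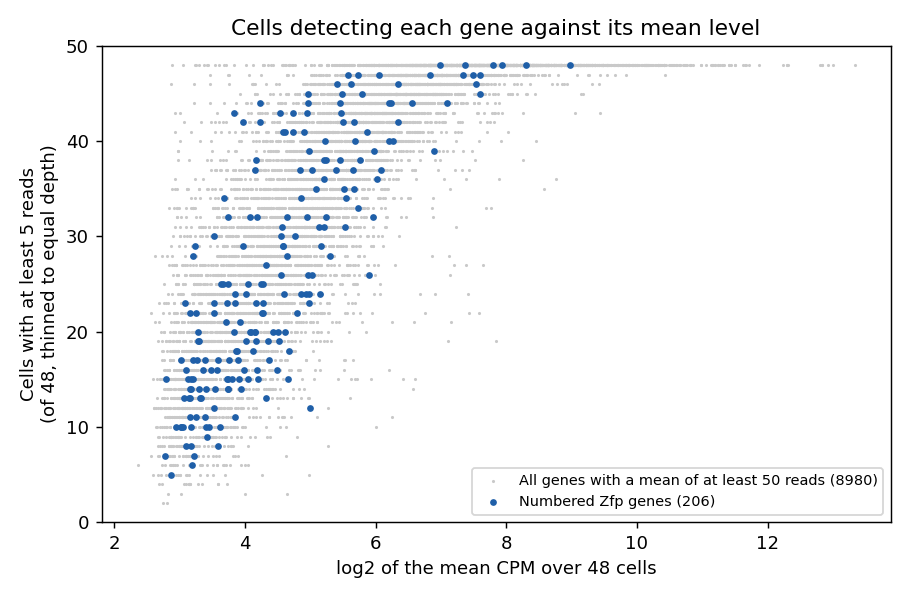
Each dot is a gene, placed by the log2 of its mean CPM over 48 cells (x axis) and the number of thinned cells with at least 5 reads (y axis), with the 206 members in blue and all 8980 genes in grey. Members fill the lower left, where most are found in fewer than 30 cells, and 6 reach all 48 cells.

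The 6 members found in every cell were Zfp207, Zfp106, Zfp706, Zfp292, Zfp330 and Zfp868, the last singled out after its values were seen. Zfp207 (BuGZ), which binds microtubules and loads the checkpoint protein Bub3 at kinetochores, had the highest mean CPM of all members. Its level ran from 48.7 to 1057 CPM with a median of 487 in the 35 cells low in Gata6. In the 13 cells high in Gata6 it ran from 57.3 to 1294 CPM with a median of 366, so the ranges overlapped nearly fully. Zfp106, an RNA-binding protein, followed with a mean of 315 CPM, and Zfp706, a small protein known for a part in the exit from ES cell self-renewal, with 244 CPM. These 3 genes made up 13.8% of the members' summed CPM, and the top 10 made up 30.8%.

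At the other end, Zfp551 was found in 5 cells and Zfp28 in 6, both named after their values were seen. Zfp551 was at 0 CPM in the median cell of both states, yet reached 244 CPM in 1 of the 35 cells and 61.8 CPM in 1 of the 13. Zfp28 reached 86.0 and 266 CPM. The cells in which they were detected held 99.8% of all Zfp551 reads and 99.4% of all Zfp28 reads. The KRAB-like members were found in a median of 22.5 cells and the others in 28.5. Members standing next to another numbered Zfp gene were found in a median of 21.5 cells, and those standing apart in 30. The median of their mean counts differed too, 120 against 183 reads, and the part of the count in this was not tested. Standing apart means only that no numbered Zfp gene lay directly beside the member, and not that it lay outside a cluster. Zfp600 and Zfp534, similar genes on chromosome 4, both counted as apart.

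A single cell held between 80 and 145 members, with a median of 116 (56.3%), or 122.5 before thinning. In the 35 cells low in Gata6 the number was 118 ± 14.1 (SD, n = 35 cells), and in the 13 high cells 109 ± 19.9 (SD, n = 13 cells). Over all 8980 genes the medians were nearly level, 6658 against 6614. The summed level of the members was 8039 ± 1675 CPM in the low cells, from 4569 to 11118, and 6666 ± 1021 CPM in the high cells, from 5240 to 8204. The ranges overlapped. KRAB-like members had 3187 ± 764 against 2683 ± 458 CPM, and the others 4851 ± 1095 against 3983 ± 722 CPM. The median depth before thinning was 6419369 reads in the low cells and 8076614 in the high cells.

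**Figure D2:**
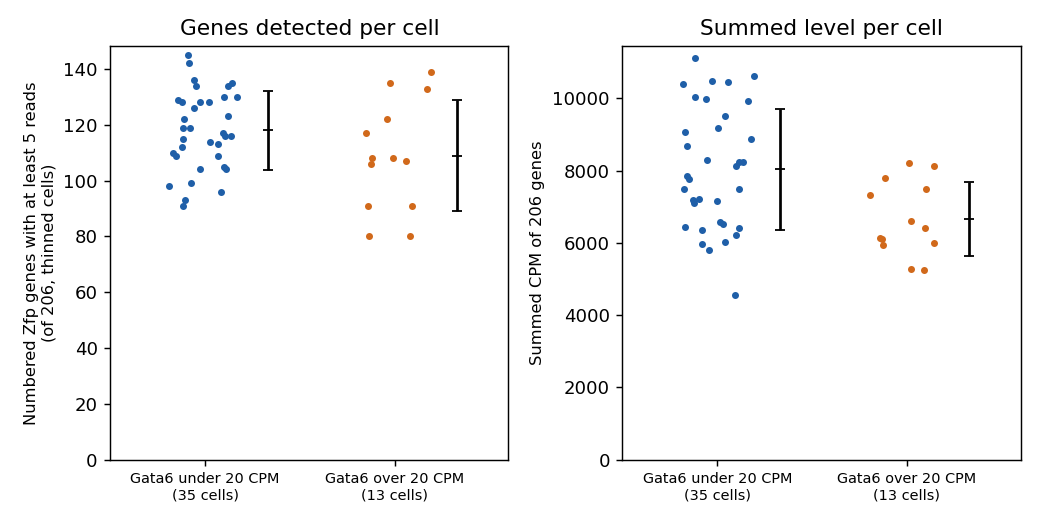
Each dot is a cell: left, the number of the 206 members with at least 5 reads after thinning; right, the members' summed CPM. Black bars are the mean and SD over cells, 118 ± 14.1 and 109 ± 19.9 on the left and 8039 ± 1675 and 6666 ± 1021 on the right, and the 2 states overlap in both panels.

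Spread between cells was next compared with that of other genes of like level. The variance of log2(CPM + 1) was set against a trend fitted over the 11746 genes that averaged 10 reads or more, with scran's modelGeneVar, a one-sided test against the scatter of genes around the trend with Benjamini-Hochberg adjustment over all of them. Of the 206 members, 2 passed at an adjusted p under 0.05, Zfp961 and Zfp868, a share of 0.971% against 2.03% of all genes tested. The genes tested reach down to 10 reads and the members only to 50. With the trend refitted on the 8980 genes averaging 50 reads or more, the same 2 members passed, against 3.01% of those genes. Zfp961 and Zfp868 are both KRAB-like members that stand next to another numbered Zfp gene. At an unadjusted p under 0.05 there were 9 members (4.37%), against 6.77% of the 8980 genes. The variance lay above the trend in 133 members (64.6%), against 54.7% of the 8980 genes. In the members' interquartile range of mean count, 0 of 102 members and 0 of 3084 genes passed. There the variance lay above the trend in 60.8% of members and 50.8% of genes. The members thus lay somewhat above the trend as a group. In that range the test called no gene at all, so the small number of members past it says little about them.

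Zfp961 was high in most cells and nearly absent in a few. It ran from 0.912 to 659 CPM with a median of 176 in the 35 low cells and from 0.102 to 326 CPM with a median of 131 in the 13 high cells. Its variance was 4.41 against a trend of 1.84 (adjusted p = 0.0154, modelGeneVar). Zfp868 ran from 1.90 to 499 CPM with a median of 133 in the low cells and from 39.2 to 1128 CPM with a median of 266 in the high cells. Its variance was 3.99 against a trend of 1.73 (adjusted p = 0.0328, modelGeneVar). The call of Zfp868 was lost in 6 of the alternative settings, with adjusted p from 0.0538 to 0.319, and that of Zfp961 in 2, with 0.750 and 0.781. Zfp868 shares 78.2% of residues with Zfp869, so its counts may hold reads of that copy.

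The other members with a large excess over the trend did not pass. Zfp51 had a variance of 10.1 against 6.17 (adjusted p = 0.906) and was found in 26 cells, at up to 516 CPM. Zfp296, a gene enriched in pluripotent cells, had 8.02 against 4.11 (adjusted p = 0.282). Zfp697 had 8.41 against 4.87, Zfp951 9.05 against 6.03, Zfp566 8.60 against 6.02, Zfp936 8.30 against 5.85 and Zfp266 5.43 against 2.71. Within the 35 low cells alone, 4 members passed (1.94%), Zfp961, Zfp266, Zfp296 and Zfp655, against 1.75% of 11454 genes averaging 10 reads or more. Zfp655 was named after its values were seen. Zfp266 ran there from 0.118 to 439 CPM with a median of 149, and Zfp296 from 0.211 to 840 CPM with a median of 82.2. When spread was measured instead by the squared coefficient of variation, 13 members passed (6.31%), against 6.22% of the 11746 genes averaging 10 reads or more. None of the 13 was Zfp961 or Zfp868.

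Farthest below the trend lay Zfp691, Zfp593 and Zfp934. Zfp691 had a variance of 2.56 against 6.18, with a median of 8.16 CPM in the low cells and 8.17 CPM in the high cells. Zfp593, which is known for a role in ribosome assembly, had 2.74 against 6.18. Zfp934 had 3.03 against 6.14 and is 1 of the close copies named above. These 3 were detected at a modest level in 42 to 44 cells.

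**Figure D3:**
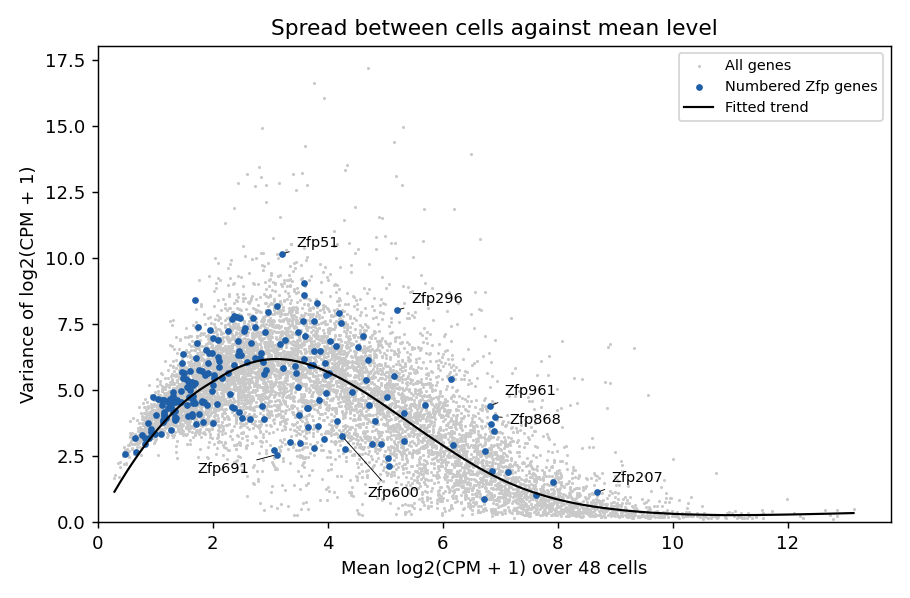
Each dot is a gene, placed by its mean log2(CPM + 1) and its variance over 48 cells, members in blue and all genes in grey, with the fitted trend as a line. Zfp961 and Zfp868 stand above the trend and passed the test, Zfp51 and Zfp296 stand above it without passing, and Zfp691 and Zfp600 lie below it.

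The members were then compared between the 13 cells with Gata6 over 20 CPM and the 35 cells under it. These cells come from 1 culture as far as the labels say, so no test was made, and a gene is counted as higher or lower where the mean of log2(CPM + 1) differed by at least 1, which is about 2-fold for well expressed genes. In the Gata6-high cells 20 members were higher (9.71%) and 48 lower (23.3%), against 18.3% and 20.2% of all 8980 genes. The median difference was -0.41, against -0.13 over all genes, and 134 members (65.0%) lay below 0, against 55.5%. The share of members that were higher was below that of all genes, and the share lower was slightly above it. The second of these turned with a pseudocount of 10 CPM, where 3.40% of members were higher and 4.85% lower, against 9.82% and 6.97% of all genes. In the members' interquartile range of mean count, 13 members were higher (12.7%) and 30 lower (29.4%), against 21.3% and 21.8% of the 3084 genes in that range. No member had ranges that did not overlap between the states, against 0.256% of all genes. Of the 206 members, 37 reached the mean of 50 reads through the low cells alone and 16 through the high cells alone, so for these the minimum itself favours a difference. They include 14 of the 48 lower and 7 of the 20 higher members. Zfp697 and Zfp9 are among these higher members and Zfp940 is among the lower, all described below. Below the minimum, Zfp711 and Zfp69 were higher (1.76 and 1.13) and Zfp428 and Zfp369 lower (-1.06 and -1.01).

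**Figure D4:**
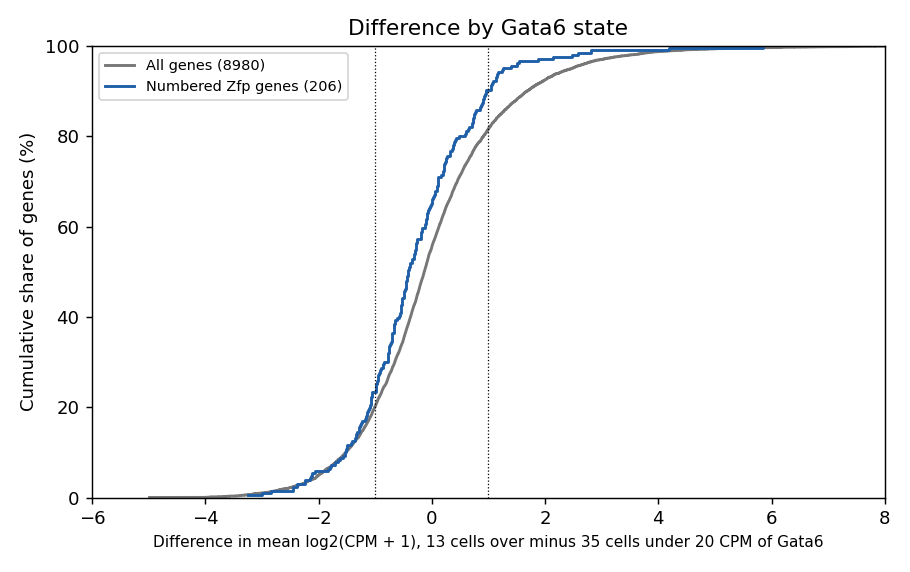
Cumulative share of genes (y axis, %) by the difference in mean log2(CPM + 1), Gata6-high minus Gata6-low cells (x axis), with dotted lines at -1 and 1. The curve of the 206 members lies to the left of that of all 8980 genes around 0, with medians of -0.41 and -0.13, and meets it below -1.

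Zfp697 and Zfp948 differed most in the upward direction. Zfp697 was at 0 to 0.400 CPM in the 35 low cells, with no read in 21 of them. It was detected in 0 of 35. By the rule of 3 (3 over the number of cells), this allows up to 8.57% of cells with at least 5 reads. This is an approximate one-sided 95% limit and sets no limit on cells that express the gene. In the 13 high cells Zfp697 ran from 0 to 299 CPM with a median of 81.8 and was detected in 12. On the log2(CPM + 1) scale this was 0.10 ± 0.14 (SD, n = 35 cells) against 5.95 ± 2.40 (SD, n = 13 cells), a difference of 5.86. The groups overlapped through 1 high cell, which had no Zfp697 read.

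Zfp948, a KRAB-like member of chromosome 17, was present in both states at different levels. It ran from 0.152 to 157 CPM with a median of 5.32 in the low cells, 27 of which had it detected. In the high cells it ran from 19.1 to 468 CPM with a median of 187 and was detected in all 13. The log2 means were 3.09 ± 2.22 and 7.28 ± 1.30, a difference of 4.19. Of the 35 low cells, 10 lay above the lowest high cell.

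The next were smaller and carried by part of the high cells. Zfp449, on the X chromosome, was detected in 5 of 35 and 9 of 13 cells, with a median of 0 and 21.1 CPM (difference 2.81). Zfp800 was detected in 6 of 35 and 10 of 13 cells, with a median of 0 and 13.1 CPM (2.58). Zfp9 was detected in 0 of 35 low cells, where it reached at most 0.794 CPM, and in 7 of 13 high cells, where it reached 255 CPM (2.47). Zfp68 (2.14), Zfp386 (1.87) and Zfp672 (1.54) followed. The spread-called Zfp868 was higher by 1.50, from 6.50 ± 2.07 to 8.00 ± 1.29. In all of these the states overlapped.

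Zfp600 and Zfp534 were lower and were detected in every Gata6-low cell. Zfp600 is a KRAB-like member listed here among the silencers of retroelements. It ran from 7.68 to 129 CPM with a median of 32.9 in the 35 low cells and was detected in all of them. In the 13 high cells it ran from 0 to 20.1 CPM with a median of 2.92 and was detected in 8. The log2 means were 5.06 ± 0.95 and 2.05 ± 1.75, a difference of -3.00. Zfp534, the copy with the like promoter printed above, ran from 7.48 to 159 CPM with a median of 44.6 in the low cells and was detected in all 35. It ran from 0.365 to 39.5 CPM with a median of 5.86 in the high cells, 9 of them detected. Of the low cells, 25 lay above every high cell for Zfp600 and 21 for Zfp534. The Zfp534 log2 means were 5.54 ± 1.00 and 2.70 ± 1.56, a difference of -2.84. Since the genes are copies of each other, reads of either may be counted to the other. This was not measured, so the pair cannot be taken as independent.

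Zfp459 had the largest drop in value, -3.24. It ran from 0.133 to 196 CPM with a median of 26.0 in the low cells and from 0 to 30.8 CPM with a median of 0.278 in the high cells, detected in 33 of 35 and 5 of 13. Zfp296 ran from 0 to 79.7 CPM with a median of 19.5 in the high cells, against the 82.2 CPM given above (difference -2.45). Zfp936 (-2.45), Zfp866 (-2.38) and Zfp532 (-2.25) followed. Zfp940 was detected in 16 of 35 low cells and 0 of 13 high cells, where it reached at most 0.391 CPM. By the rule of 3, a count of 0 there allows up to 23.1% of cells with at least 5 reads. The Zfp940 difference was -2.24 by the mean of log2 values, -0.22 by medians and -4.89 as the log2 ratio of mean CPM.

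**Figure D5:**
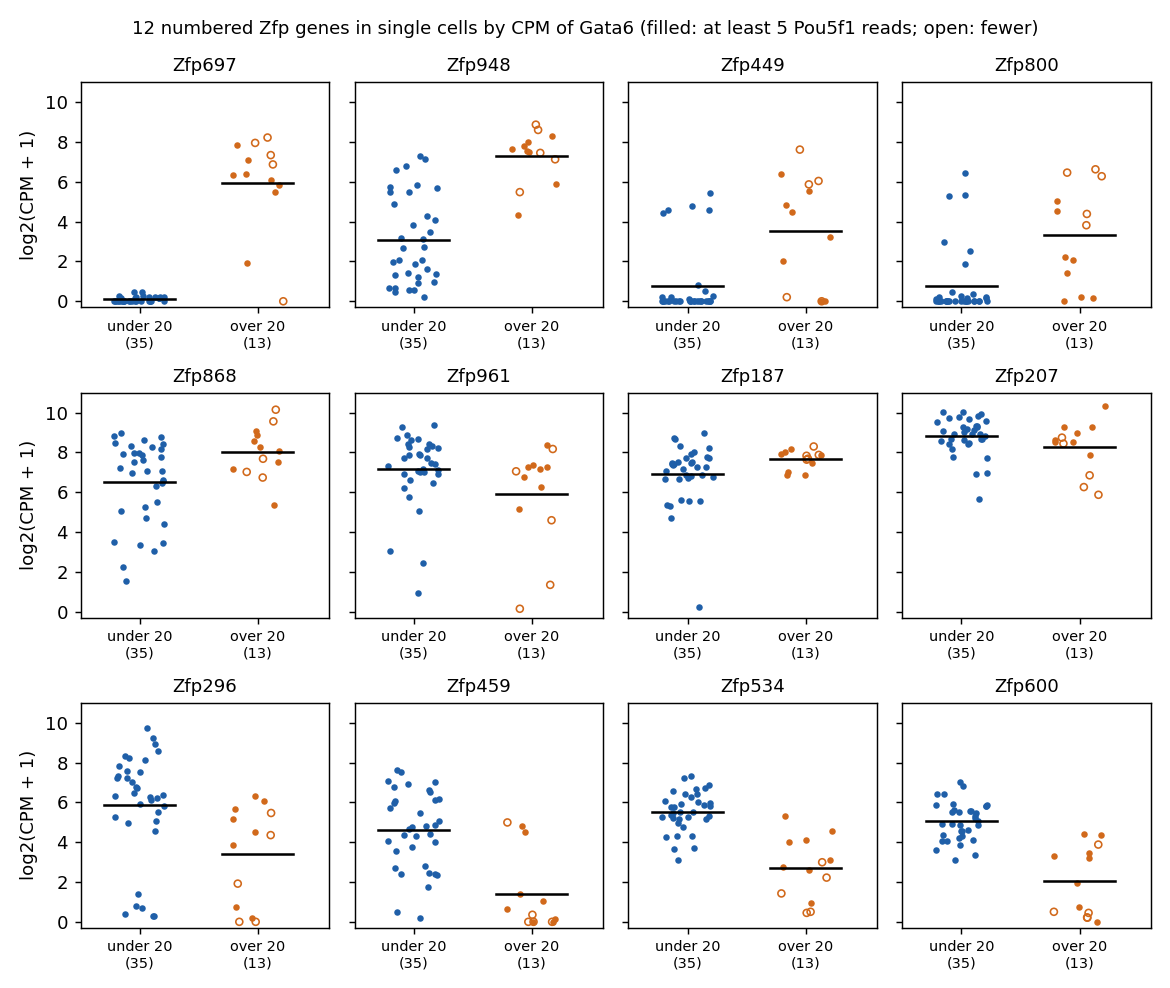
Each dot is a cell, on the log2(CPM + 1) scale (y axis) by Gata6 state (x axis); black lines are means, and open dots are cells with fewer than 5 reads of Pou5f1. Zfp697 is near 0 in all 35 low cells and above 5 in 11 of the 13 high cells, Zfp600 and Zfp534 form a narrow band in the low cells, and Zfp207 is high in both states.

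Among the 13 high cells, 8 had at least 5 reads of Pou5f1 (Oct4), the central pluripotency factor, and 5 had fewer. In these 5 cells, Zfp697 was at 0, 116, 161, 247 and 299 CPM, and in the 8 others at 2.73 to 233 CPM with a median of 73.2. Zfp697 was thus present in both sets. Zfp800 was at 13.1, 19.9, 76.8, 87.3 and 98.0 CPM in the 5 cells and at 0 to 32.0 CPM with a median of 2.43 in the 8. Zfp600 was at 0.153, 0.166, 0.365, 0.417 and 13.7 CPM in the 5, against 0 to 20.1 CPM with a median of 8.54 in the 8. Zfp936 was at 0, 0, 0.102, 0.139 and 0.153 CPM in the 5 and reached 115 CPM in the 8. These differences were not tested.

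Members with known roles were read by role. Of 9 listed Zfp genes that silence retroelements or imprinted genes, 7 had a row and 6 of those passed the count minimum, with none higher and 1 lower, Zfp600 (16.7%, against 20.2% of all genes). They were found in a median of 43.5 cells. Zfp809, which recruits Trim28 to the primer binding site of murine leukaemia virus, was detected in 47 cells, with a median of 38.2 CPM in the low cells and 29.2 CPM in the high cells (difference -0.27). Zfp568, which represses a placental transcript of Igf2, had medians of 68.6 and 86.8 CPM (0.05). Zfp445, an imprint guardian, had 15.2 and 21.9 CPM (0.59), and Zfp932 had 18.3 and 7.26 CPM (-0.76). Zfp708 was detected in 10 cells (-0.26).

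Of 12 listed Zfp genes that act on RNA, translation or ubiquitin, 11 had a row, all of which passed, and none was higher or lower by 1, against 18.3% and 20.2% of all genes. Their median difference was -0.49 (all genes -0.13), and 9 of 11 lay below 0 (all genes 55.5%). Zfp598, the ubiquitin ligase that senses collided ribosomes, had medians of 14.0 and 10.7 CPM (-0.78). Zfp36 was detected in 17 cells only, with up to 336 CPM in the low cells. Zfp259 (Zpr1) was detected in 47 cells, with medians of 59.4 and 40.3 CPM (-0.65). The closest to the threshold were Zfp326 (-0.99) and Zfp106 (-0.98).

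Of 22 listed members that act in transcription or chromatin, 15 passed, with 3 higher (20.0%, against 18.3% of all genes), 6 lower (40.0%, against 20.2%) and a median of -0.94 (all genes -0.13). Higher were Zfp609 (1.23), Zfp161 (1.17), also known as the repressor Zbtb14, and Zfp335 (1.04). Lower were Zfp296, Zfp462 (-1.52), Zfp516 (-1.27), Zfp746 (-1.14), Zfp217 (-1.11), which acts with corepressors, and Zfp263 (-1.05). Zfp462, a large chromatin-associated protein, was detected in all 35 low cells, from 3.78 to 233 CPM with a median of 51.2, and in 11 high cells, from 0.417 to 71.5 CPM with a median of 19.1. The Zfp462 difference was -3.25 against the 5 high cells with fewer than 5 Pou5f1 reads and -0.44 against the other 8. For Zfp263 these were -2.79 and 0.033. Zfp143, an activator bound at many promoters, differed by 0.01, and Zfp148 by 0.95.

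KRAB-like and other members had like shares on either side. Of 98 KRAB-like members, 9 were higher (9.18%) and 25 lower (25.5%), with a median of -0.49. Of the 108 others, 11 were higher (10.2%) and 23 lower (21.3%), with a median of -0.40. Over all 8980 genes the shares were 18.3% and 20.2%. The difference between the KRAB-like and other members was not tested. The corepressor that KRAB domains recruit did differ in level. Trim28 ran from 163 to 1799 CPM with a median of 621 in the low cells and from 25.1 to 481 CPM with a median of 184 in the high cells (difference -2.00). It was detected in all 48 cells, and its spread passed the test (adjusted p = 5.97e-06, modelGeneVar). Within the low cells alone it did not pass (adjusted p = 0.301, modelGeneVar). Of 25 genes listed for the Trim28 complex and its partners with a mean of at least 50 reads, none was higher, against 18.3% of all genes. Of the same 25, 6 were lower (24.0%), close to the 20.2% of all genes. Besides Trim28 these were its partners Setdb1 (-1.87) and Atf7ip (-2.26), with Atf7ip2 (-1.08), the deacetylase Hdac2 (-1.90) and the remodeller Smarcad1 (-1.45). Over the 26 listed genes with a row, the summed level was 5233 ± 1278 CPM (SD, n = 35 cells) in the low cells and 3882 ± 943 CPM (SD, n = 13 cells) in the high cells.

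Finally, covariation was described across the 35 low cells, which leaves out the difference between the Gata6 states. Over 21115 pairs of members the median Spearman rho was 0.007, with an interquartile range of -0.11 to 0.13, and over pairs of all 8980 genes it was 0.002. Pairs of members were thus centred near 0, as were pairs of all genes. The 45 pairs of neighbours on a chromosome had a median rho of 0.086, from -0.40 (Zfp418 with Zfp772) to 0.62 (Zfp960 with Zfp97). Neighbours among all genes were not compared, and the difference from other pairs was not tested. The pairs with the highest rho were Zfp187 with Zfp330 (0.62), Zfp960 with Zfp97 (0.62) and Zfp707 with Zfp418 (0.59). Zfp960 and Zfp97 are neighbours and share 96.3% of residues, so that their counts may hold the same reads. They ran from 0.351 to 70.0 CPM and from 0.475 to 127 CPM in these cells. The genes whose level followed the members' summed log2 level most closely were Zfp763, itself a member (0.58), the tubulin gene Tubb3 (0.57) and Gga3 (0.55). The summed level had a rho of 0.40 with the number of genes with a read in the cell, and of -0.15 with its total reads. All these values share the cells and their library scaling, and the part of the number of genes in them was not tested.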

How the data were processed

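The authors deposited whole-number read counts per gene with no normalization, 1 column for each of 96 samples (48 cells on 2 lanes). Build mm9 and the tools STAR 2.3.1z12, Subread 1.4.5-p1 and featureCounts are listed in the submitters' processing notes. All gene rows entered the library totals. Lanes were summed per cell, TMMwsp factors from edgeR 4.0.16 gave the CPM, and levels were taken as log2(CPM + 1). Spread was tested in R 4.3.3 with scran 1.30.0 (modelGeneVar) on genes averaging 10 reads or more. Detection took at least 5 reads in cells thinned to 4408953 reads. Cells under and over 20 CPM of Gata6 were compared as a description, without a test.

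The members and lists were chosen with earlier results of these data known. Genes named were those with the 8 largest excesses of variance and the 3 lowest, the 8 largest differences by Gata6 state in each direction, the 3 members on each side of the count minimum, the 3 highest by mean CPM, the listed roles, the 3 most correlated pairs and the corepressor genes. All 206 members matched RefSeq, 7 by an older symbol. No table of proteins was used, so C2H2 (C-x2-4-C-x12-H-x3-5-H), KRAB-like stretches and identity were read from the longest open reading frame of GENCODE transcripts, with biopython 1.88 for alignment. Promoters are on GRCm38.p6 and not on mm9, so no coordinate was carried between them. Alternatives covered scaling (DESeq2 1.42.0 size factors, scran factors, library size), pseudocount, filters, lanes, thinning, cutoffs and cells left out.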

Additional observations from a re-analysis of the deposited data

How the results depend on the processing

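Counts of members with excess spread are small, and they moved with the setting. Against Zfp961 and Zfp868 (2 members), a pseudocount of 10 CPM lost both and called 1 other, Zfp697 (adjusted p = 0.0313, modelGeneVar). Only Zfp961 (1 member) passed with no filter on low counts, with lane 1 alone and in thinned cells, 4 passed in the cells low in Gata6 alone, and 13 with the squared coefficient of variation. With library size alone and with scran factors 3 members passed (all genes 1.93% and 1.95%). Zfp207 was the added member (adjusted p = 0.0257 and 0.0252, modelGeneVar). Against 20 higher and 48 lower members, a pseudocount of 10 CPM left 7 and 10 (all genes 9.82% and 6.97%), the 136 members with a mean of at least 100 reads gave 9 and 41 (6.62% and 30.1%, all genes 18.4% and 21.0%), and the interquartile range of mean count gave 13 and 30 by having fewer members. The 5 high cells with fewer than 5 Pou5f1 reads gave 33 and 74 (16.0% and 35.9%, all genes 23.2% and 29.8%). The share of higher members among those counted was 29.4%, 41.2% with a pseudocount of 10 CPM and 18.0% with a mean of at least 100 reads. Leaving out each high cell in turn gave 18 to 27 higher and 45 to 57 lower members. With library size, scran or DESeq2 scaling, 20 members were higher and 47 to 54 lower. At a minimum of 1 read, a cell held a median of 147 members (116 at 5 reads), and 19 members were in every cell (6 at 5 reads). Zfp263 turned from -1.05 to 0.033 in the 8 high cells with at least 5 Pou5f1 reads. Of 897 recomputed differences of named members, 887 moved by less than the spread between cells, 9 moved further and 1, that of Zfp263, was counted as reversed. Most of these settings share most or all of the cells. A move smaller than the spread between cells was therefore likely beforehand and says little of stability. The cause of these shifts was not tested. No paired analysis was possible because all cells form 1 group. Low counts limit detection: the median member had a mean of 137 reads, and a lowly expressed member can be missed in a cell that holds its transcript.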
